A study of Mus musculus with 18 samples.

Results

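The C group of a clenbuterol experiment, mice that received vehicle and no drug, gives a baseline of gene expression in mouse gracilis muscle. Its members were the arrays whose labels read control, replicates 1 to 3, on the MOE430A and MOE430B chips, which are 6 of the 18 arrays of the series and 3 of its 9 RNA pools. The mice were C57BL/6J males bought at 3 to 5 wk of age and kept for 7 days before treatment. They received 10 daily intraperitoneal injections of vehicle (ethanol in polyethylene glycol and buffered saline), and muscle was frozen 24 h after the last. Each pool held RNA from 3 mice, so spread between pools hides the spread between single mice. The study treated whole cages alike and chose the mice to be pooled by their weight gain and blood urea nitrogen, so these are selected animals, and the part of the cage in any difference was not tested. The muscle is called resting only in the sense that no clenbuterol was given.

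Skeletal muscle is built of multinucleated fibres whose contractile proteins come in fast and slow isoforms, encoded by separate genes of a family. Fast glycolytic fibres of mice use the IIB myosin heavy chain, a fast calcium pump and the calcium buffer parvalbumin, and draw on phosphocreatine and glycogen. Slow oxidative fibres use the beta myosin heavy chain, slow troponins and the slow calcium pump, and rely on mitochondria and myoglobin. A whole muscle also holds capillaries, connective tissue, nerve, resident macrophages, satellite cells and some fat. In RNA from whole muscle, fewer cells of a type and less RNA per cell cannot be told apart.

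The level of a probeset is its signal over the median of all signals on the same array, so a level of 1 is the brightness of the middle probeset of the chip. The median signal in C pools 1, 2 and 3 was 30.8, 65.0 and 42.8 on MOE430A and 17.5, 25 and 19.5 on MOE430B. A probeset is the set of short probes that reports 1 transcript. Probesets differ in how strongly they bind, so an order of levels is an order of brightness, whereas a change of 1 probeset between pools is free of this. Among 724 genes of MOE430A with 2 or more probesets and a brightest level of at least 10, the brightest probeset was 8.33-fold (median) above the dimmest, and this is the scale on which any comparison of different genes has to be read. Genes with no role in muscle served as a gauge of dim signals. The 95th percentile of 137 probesets for 118 genes of other tissues and for olfactory, vomeronasal and taste receptors lay at a level of 1.39 on MOE430A, and that of 23 probesets lay at 2.46 on MOE430B, and these are called the dim level. A gene is said to be above or under it by the geometric mean of its levels over the pools. Above it lay 5952 of the 12393 genes on MOE430A (48.0%) and 1721 of the 5800 genes measured on MOE430B alone (29.7%), and the counts of list members above it are to be read against these shares. The Y-linked gene Eif2s3y had levels of 2.17, 2.72 and 3.08 in pools 1, 2 and 3, while Kdm5d and Uty, also Y-linked, stayed under the dim level in their mean, as did Xist, with 0.945, 0.527 and 1.31 for the brightest of its 3 probesets.

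The brightest genes of the control muscle were those of the fast contractile apparatus and of glycolysis. Troponin I of fast fibres (Tnni2), which holds the thin filament off in the absence of calcium, ranked first on MOE430A with levels of 464, 250 and 379 in pools 1, 2 and 3. Aldolase A (Aldoa), a glycolytic enzyme, had 438, 264 and 347. The fast calcium pump of the sarcoplasmic reticulum (Atp2a1) had 449, 259 and 335. Muscle creatine kinase (Ckm), which regenerates ATP from phosphocreatine, had 421, 262 and 335, and skeletal alpha-actin (Acta1), the main thin filament protein, had 393, 234 and 321. All 5 were highest in pool 1 and lowest in pool 2 after division by the array median.

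The next ranks held tropomyosin 1 (Tpm1) at a mean level of 301 ± 101 (SD, n = 3), the fast regulatory light chain Mylpf at 293 ± 72.0, the IIB myosin heavy chain Myh4 at 289 ± 75.0, parvalbumin (Pvalb) at 284 ± 68.7 and fast troponin C (Tnnc2) at 281 ± 83.8. The fast Z-disc protein Actn3 had 250 ± 57.5, fast troponin T (Tnnt3) 243 ± 61.5 and the essential light chain Myl1 242 ± 64.1. Titin (Ttn), the giant spring of the sarcomere, had 218 ± 56.1, and the IIX myosin heavy chain Myh1 had 182 ± 40.2. Triadin (Trdn), which anchors the calcium store to its release channel, had 178 ± 35.8. These 11 genes form or control the contractile lattice, and each of them was highest in pool 1 and lowest in pool 2. This order depended on the scaling. Of the 30 brightest genes, pool 1 was highest for 30 and pool 2 lowest for 29 after division by the array median. After quantile normalization, which gives the arrays the same distribution of signals, these counts were 14 and 9.

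Enzymes and mitochondrial proteins made up much of the rest of the 30 brightest genes. Lactate dehydrogenase A (Ldha) had a mean level of 245 ± 35.7 (SD, n = 3), muscle enolase (Eno3) 217 ± 51.5, muscle phosphoglycerate mutase (Pgam2) 188 ± 37.5, phosphoglycerate kinase (Pgk1) 176 ± 22.1 and muscle glycogen phosphorylase (Pygm) 173 ± 26.6. The adenine nucleotide translocator Slc25a4, which exchanges ATP for ADP across the mitochondrial membrane, had 238 ± 51.1, and the respiratory chain subunits Uqcrb and Cox6c had 221 ± 40.6 and 185 ± 32.7. Carbonic anhydrase 3 (Car3), abundant in both fat and slow muscle, had 248 ± 45.6, and myoglobin (Mb), the oxygen store, had 186 ± 30.1. The remaining genes were the growth-related protein Tpt1 at 248 ± 58.2, selenoprotein W (Selenow) at 207 ± 42.1, the tubulin Tuba4a at 177 ± 42.2 and cardiac actin (Actc1) at 164 ± 48.2.

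**Figure D1:**
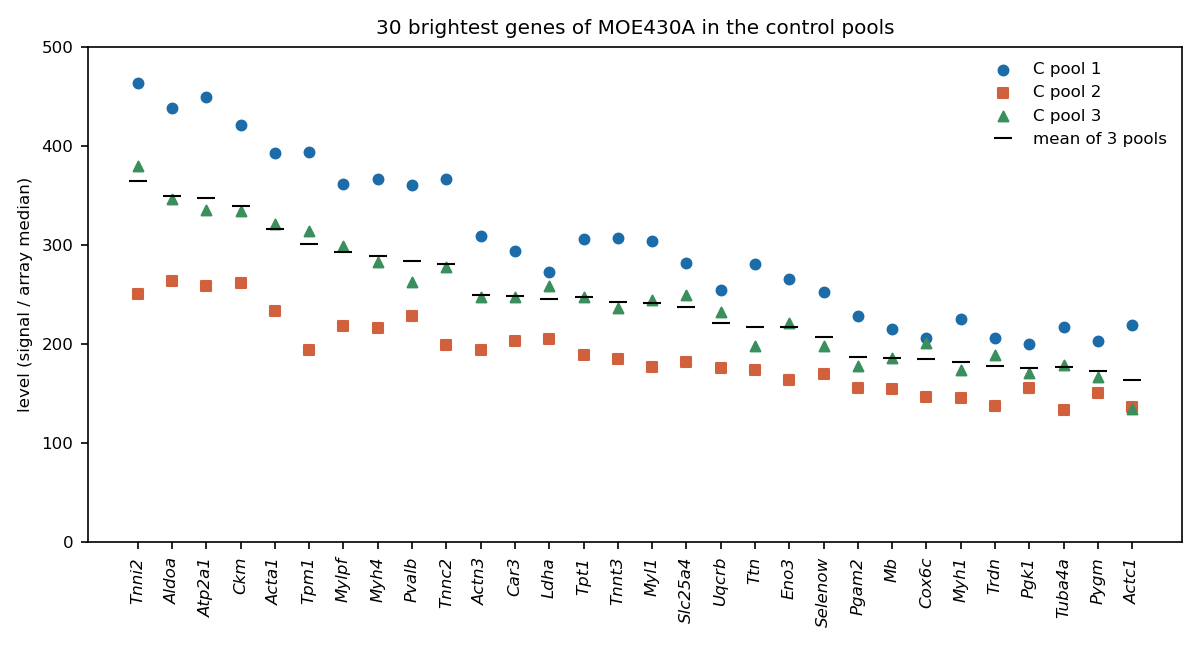
Levels (signal divided by the array median, linear axis from 0) of the 30 brightest genes of MOE430A in each of the 3 control pools, with the mean as a bar. Pool 1 is highest for all 30 genes and pool 2 lowest for 29, with Actc1 the exception. After quantile normalization (not drawn) pool 1 was highest for 14 and pool 2 lowest for 9.

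On MOE430B, which holds less well known transcripts and whose levels are not on the scale of MOE430A, fast myosin binding protein C (Mybpc2) was brightest with levels of 433, 327 and 417 in pools 1, 2 and 3. It was followed by the small heat shock protein Hspb6 (263, 175 and 179), sarcalumenin (Srl), a calcium binding protein of the sarcoplasmic reticulum (219, 172 and 184), and the kinase Mylk4 (209, 147 and 196). Hemojuvelin (Hjv), a regulator of iron balance, had 169, 148 and 190, and muscle AMP deaminase (Ampd1) had 158, 157 and 189. Mybpc1, Synm, Carnmt1 and Neb completed the 10 brightest genes of that chip, with mean levels from 142 to 156. Pool 2 was lowest for all 10 of these genes after division by the array median, and for 3 of them after quantile normalization.

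Few transcripts carried a large part of the signal. The 100 brightest of the 22626 probesets on MOE430A held 19.6%, 14.7% and 17.0% of the summed signal in pools 1, 2 and 3, and the 10 brightest held 4.09%, 2.58% and 3.29%. A geometric mean level of 100 or more was reached by 68 genes on MOE430A, and one of 10 or more by 1160. The 100 brightest genes were taken from the 12393 of MOE430A. Of these 100, 25 were on the lists of filament, Z-disc and calcium handling genes and 41 on those of energy metabolism. The list of the respiratory chain alone gave 20 of its 41 members and that of glycolysis and glycogen 9 of 24. By fibre type, 16 of the 17 fast fibre genes on the chip were among the 100 brightest and 1 of the 17 slow fibre genes, Mb, which is also in fast oxidative fibres. Proteasome subunits and ubiquitin ligases, a list of 26 genes on this chip, gave 0 of the 100. With 100 of 12393 genes in the set, few or none of any 26 genes would be there, so this 0 does not mark the list. Its brightest member was Psmb7 at 73.3, 73.1 and 78.8.

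The upstream sequence of some of these genes is shown because short elements that muscle factors are known to bind lie in it. The hexamer CAGCTG, 1 form of the E-box that MyoD family proteins bind, and the CArG box, which serum response factor binds, were looked for on both strands in the 250 bases before the annotated start (RefSeq, GRCm38.p6, the first listed promoter of each gene). Among the 50 brightest MOE430A genes with a listed promoter, 24% held CAGCTG and 8% a CArG box. Over the 9887 MOE430A genes with a promoter the shares were 11.7% and 1.38%, and over all 27025 promoters 12.8% and 1.40%. For the GC box GGGCGG the shares were 40%, 53.2% and 32.9%, and for the TATAAA element 10%, 9.14% and 13.0%. The 4 of the 50 genes with a CArG box were Acta1, Actc1, Ldb3 and Myh4. The 130 bases before the start are given 5′ to 3′ on the strand of the gene, with CArG box, CAGCTG and TATAAA matches in capitals. The genes are Acta1, the bright fast genes Myh4, Mylpf and Atp2a1, and Tnni1, a slow gene. They lie at chr8:123894776-123894905 for Acta1 and chr7:126463074-126463203 for Atp2a1, both on the minus strand, and at chr11:67237682-67237811 for Myh4, chr7:127211478-127211607 for Mylpf and chr1:135799291-135799420 for Tnni1, all on the plus strand.
Acta1: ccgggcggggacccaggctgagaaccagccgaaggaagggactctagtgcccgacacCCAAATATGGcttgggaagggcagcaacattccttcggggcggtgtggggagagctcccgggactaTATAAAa
Myh4: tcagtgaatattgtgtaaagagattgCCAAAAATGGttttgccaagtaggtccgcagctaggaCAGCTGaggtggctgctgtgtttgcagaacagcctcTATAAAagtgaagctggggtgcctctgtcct
Mylpf: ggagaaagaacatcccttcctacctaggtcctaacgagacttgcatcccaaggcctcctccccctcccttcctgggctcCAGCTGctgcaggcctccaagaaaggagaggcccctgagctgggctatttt
Atp2a1: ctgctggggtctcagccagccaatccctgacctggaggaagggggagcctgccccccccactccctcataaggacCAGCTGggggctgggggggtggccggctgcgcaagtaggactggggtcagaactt
Tnni1: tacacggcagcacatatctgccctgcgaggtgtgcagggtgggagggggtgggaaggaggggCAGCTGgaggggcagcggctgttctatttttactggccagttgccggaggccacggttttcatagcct
In these stretches the CArG box starts 73 bases before the start of Acta1 and 104 before that of Myh4, and CAGCTG starts 67 bases before Myh4, 51 before Mylpf, 55 before Atp2a1 and 68 before Tnni1. The slow gene Tnni1 thus holds the same hexamer as the fast genes Myh4, Mylpf and Atp2a1. A match describes the sequence only and is not evidence of a factor being bound.

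By its brightest probeset, the fast gene of each contractile family was brighter than the slow or less fast gene in the control pools. In 16 of 16 fibre type pairs measured on 1 chip the gene in the numerator of the ratio had the lower mean level. Mean ratios were from 2.95% to 89.8%, and the median log2 ratio was -2.77. The pair of phospholamban over sarcolipin sets pump inhibitors side by side, not a slow and a fast isoform. In 15 of the 16 pairs the numerator was lower in every pool, the exception being phospholamban over sarcolipin. In 11 of the 16 the numerator was lower for whichever probesets were taken. For Tnni1, Tpm3, Tpm2, Myoz2 and Pln another choice of probesets turned the order.

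The myosin heavy chains, which set the speed of shortening, were brightest for IIB (Myh4: 366, 217 and 283 in pools 1, 2 and 3), then IIX (Myh1: 225, 146 and 174), then IIA (Myh2: 129, 149 and 93.9), then the slow beta chain (Myh7: 39.5, 46.1 and 34.2). Myh1 and Myh2 were closest, with Myh2 above Myh1 in pool 2 only. As a share of the Myh4 level, Myh1 was 61.5%, 67.4% and 61.4%, Myh2 was 35.3%, 68.6% and 33.2% and Myh7 was 10.8%, 21.3% and 12.1%. Myh1 thus kept the steadiest ratio of the 16 pairs (SD 0.08 on the log2 scale), while Myh2 and Myh7 both stood higher against Myh4 in pool 2 than in the other pools. A second probeset annotated to Myh1 had a level of only 0.308, which shows how far a probeset can fall short of its gene.

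The troponins, the calcium switch of the thin filament, gave gaps of very different width. Slow troponin I (Tnni1), at levels of 8.35, 14.4 and 7.51, was 1.80%, 5.76% and 1.98% of Tnni2, an order that another choice of probesets turned. Slow troponin C (Tnnc1), at 43.0, 65.2 and 28.6, was 11.7%, 32.7% and 10.3% of Tnnc2, and slow troponin T (Tnnt1), at 29.8, 36.7 and 24.3, was 9.68%, 19.9% and 10.3% of Tnnt3. The slow light chains Myl2 and Myl3 were 11.9%, 25.1% and 11.7% of Mylpf and 17.1%, 36.4% and 19.7% of Myl1. In each of these 5 pairs pool 2 had the highest ratio, and pools 1 and 3 were close to each other.

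Calcium handling and the Z-disc followed the same order of brightness. The slow calcium pump Atp2a2, at levels of 42.1, 50.7 and 38.4, was 9.38%, 19.6% and 11.5% of Atp2a1. Cardiac calsequestrin (Casq2), the calcium store protein of slow and heart muscle, was 2.40%, 3.74% and 2.71% of Casq1, a 34.5-fold gap between the means. Actn2 was 11.8%, 17.9% and 13.6% of Actn3, and the Z-disc proteins Myoz2 and Myoz1 had a ratio of 10.4%, 14.2% and 13.4%. The pump inhibitors phospholamban (Pln: 1.29, 1.42 and 1.32) and sarcolipin (Sln: 1.24, 1.75 and 1.58) both lay close to the dim level, so that their ratio of 104%, 81.1% and 83.7% does not order them, and without pool 3 their log2 ratio was 0.0091. Tpm3 was 6.44%, 10.9% and 6.35% of Tpm1 and Tpm2 37.9%, 49.6% and 26.6%. Mybpc1, measured on MOE430B, was 44.2%, 40.6% and 34.3% of Mybpc2.

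**Figure D2:**
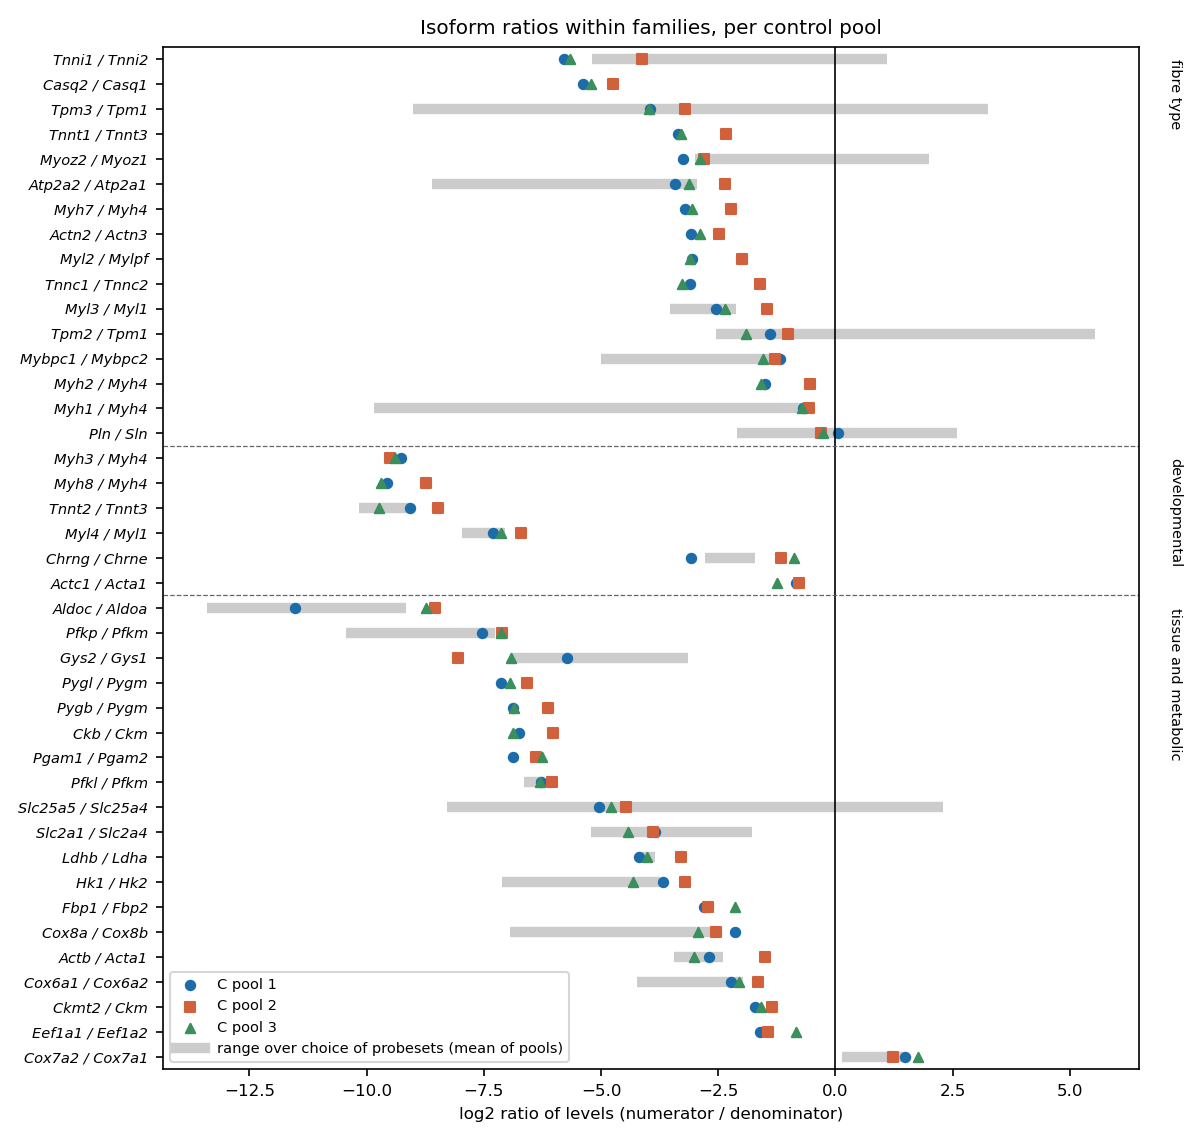
Log2 ratio of levels for 41 isoform pairs (numerator over denominator) in each control pool, in blocks of fibre type, developmental and tissue or metabolic pairs. Grey bars span the ratios, averaged over pools, that other probesets of the same genes would give, and a pair with 1 probeset per gene has no bar. Most points lie left of 0, pool 2 is the rightmost in 14 of the 16 fibre type pairs, and several grey bars, such as those of the tropomyosins, are far wider than the distance between pools.

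The higher slow to fast ratios of pool 2 moved with brightness. Pool 2 had the highest ratio in 14 of the 16 fibre type pairs, but also in 12 of the 19 tissue and metabolic pairs. The 52 probesets of MOE430A with a level of 128 or more deviated from the mean of the pools by a median of 0.31, -0.32 and 0.01 on the log2 scale in pools 1, 2 and 3, and most fast genes are among them. After quantile normalization of the 3 arrays, which gives them the same distribution of signals, pool 2 was highest in 11 of the 16 fibre type pairs and in 6 of the 19 others. The Myh7 to Myh4 ratio then was 14.4%, 17.7% and 12.6%, and the Tnnc1 to Tnnc2 ratio 15.7%, 27.7% and 10.8%. The Myh2 to Myh4 ratio was 42.1%, 63.5% and 32.7% and the Tnni1 to Tnni2 ratio 2.46%, 4.59% and 2.18%. The median SD of the log2 ratio over the 16 pairs was 0.49 before and 0.25 after. The brightest signal on the MOE430A array was 14285, 17143 and 16239 in pools 1, 2 and 3, so the tops of the arrays lay closer together than their medians. The part of this, and of fibre make-up, in the pool 2 ratios was not tested.

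The fast and slow gene lists showed this as groups. The summed level of the 18 fast fibre genes was 5337, 3294 and 4290 in pools 1, 2 and 3, and that of the 18 slow fibre genes was 821, 761 and 682. The median deviation of the fast genes was 0.35, -0.35 and 0.01 on the log2 scale, against 0.01, 0.00 and 0.02 over the 14720 genes that passed a filter on dim probesets, and after quantile normalization it was 0.03, 0.00 and -0.01. The slow genes deviated by less than 0.01 in pool 1 and by 0.08 and -0.17 in pools 2 and 3. Of the 18, 11 were lowest in pool 3, against 33.3% of all genes.

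Most isoforms of developing muscle were dim. Embryonic myosin heavy chain (Myh3) had levels of 0.591, 0.299 and 0.418 and the perinatal chain (Myh8) 0.481, 0.511 and 0.341, all under the dim level. Cardiac troponin T (Tnnt2), which fetal muscle expresses, had 0.571, 0.517 and 0.278, while the embryonic light chain Myl4, at 1.92, 1.70 and 1.75, lay a little above the dim level. The fetal acetylcholine receptor subunit Chrng had 0.120, 0.514 and 0.432 and its adult counterpart Chrne 1.02, 1.15 and 0.804, so neither was above the dim level. The bright one was cardiac actin, which is replaced by skeletal actin as muscle matures. Actc1 had 219, 137 and 135, or 55.9%, 58.5% and 42.0% of Acta1. The coding parts of the sarcomeric actins are near-identical, and whether the Actc1 probeset also binds Acta1 RNA was not tested.

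Of the 21 genes on the list of developmental and regeneration genes, all on MOE430A, 9 lay above the dim level, a share near the 48.0% of all genes of that chip. Among the muscle regulatory factors, Myf6, the one known to persist in adult fibres, had levels of 13.1, 10.8 and 12.2. Myod1 had 2.80, 1.99 and 1.93, Myog 2.31, 1.54 and 2.36, and Myf5, a factor of satellite cells, 0.305, 0.220 and 0.175. Myf6, Myod1 and Myog lay above the dim level and Myf5 under it.

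Muscle forms of enzymes mostly outshone their counterparts from other tissues. In 18 of 19 tissue and metabolic pairs the form in the numerator of the ratio had the lower mean level. The pairs also hold proteins that are not enzymes, such as the actins, and Ckmt2 with Ckm, which are both muscle forms. The numerators Aldoc, Pfkp, Gys2 and Fbp1 were under the dim level. Brain creatine kinase (Ckb) was 0.931%, 1.53% and 0.847% of Ckm, brain phosphorylase (Pygb) was 0.854%, 1.44% and 0.868% and liver phosphorylase (Pygl) 0.711%, 1.05% and 0.812% of Pygm, and liver phosphofructokinase (Pfkl) was 1.28%, 1.52% and 1.27% of Pfkm. The heart form of lactate dehydrogenase (Ldhb) was 5.44%, 10.2% and 6.13% of Ldha. Hexokinase 1 was 7.85%, 10.8% and 4.99% of Hk2, and the glucose carrier Slc2a1 was 6.93%, 6.77% and 4.63% of the insulin-responsive carrier Slc2a4. Mitochondrial creatine kinase (Ckmt2) was 30.2%, 39.1% and 33.3% of Ckm.

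Respiratory chain subunits with a muscle form did not all follow this order. The muscle form Cox6a2 was brighter than Cox6a1, which was 21.4%, 31.8% and 24.1% of it, and Cox8b was brighter than Cox8a, which was 22.6%, 17.0% and 13.1% of it. The liver form Cox7a2, at levels of 119, 102 and 142, was 279%, 235% and 340% of the muscle form Cox7a1, at 42.5, 43.3 and 41.7, and this held for every choice of probeset. The translation factor Eef1a1 was 33.0%, 37.0% and 55.4% of Eef1a2, the form used by adult muscle and neurons. Cytoplasmic actin (Actb), often used as a reference gene, was 15.4%, 35.5% and 12.4% of Acta1, with levels of 60.5, 83.1 and 39.8 for its brighter probeset and 31.5, 27.7 and 25.7 for the other.

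Energy metabolism was bright as a whole. The 41 respiratory chain genes had a median level of 73.8 and all 41 were above the dim level, as were all 22 genes of the tricarboxylic acid cycle (median 37.7, led by Mdh2, Pdha1, Cs and Sdha) and all 23 of fatty acid uptake and oxidation (median 17.3, led by Hadh, Fabp4, Lpl and Etfb). Glycolysis and glycogen had a median of 43.1, with 22 of 24 genes above the dim level. The median over all 18193 genes was 1.30. Respiratory chain genes were lowest in pool 2 for 28 of 41 genes, against 33.6% of all genes, and highest in pool 3 for 22, against 36.9%, with median deviations of 0.04, -0.12 and 0.10 that became -0.02, 0.01 and 0.02 after quantile normalization. Cytosolic ribosomal proteins were highest in pool 3 for 20 of the 26 genes that passed the filter, against the same 36.9%, with deviations of -0.08, -0.08 and 0.13, and -0.09, -0.03 and 0.07 after quantile normalization.

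Genes that respond quickly to handling, stress or feeding were measured as a sign of the state of the tissue. Of 22 immediate early genes, all on MOE430A, 13 lay above the dim level, against 48.0% of all genes of that chip. The brightest were Nr4a1 (21.5, 22.8 and 21.6), Jund (22.4, 19.3 and 14.2), Dusp1 (8.56, 11.95 and 13.4) and Jun (5.64, 5.98 and 5.91). Fos had 1.24, 3.12 and 2.33 and Egr1 2.28, 2.68 and 5.55. All 19 genes that respond to glucocorticoids or fasting were above the dim level, led on MOE430A by Klf9 (47.7, 39.0 and 52.9), Tsc22d3 (26.1, 22.8 and 26.5) and Glul (23.7, 18.1 and 24.3). The muscle ubiquitin ligase Trim63, on MOE430B, had 24.6, 24.1 and 22.2. Pdk4, the kinase that holds back glucose oxidation in fasting, had 26.3, 17.6 and 17.5. Of the circadian clock, 9 of 18 genes were above the dim level, a share near that of all genes, and the brightest were Tef, Nr1d2, Rora and Bhlhe40. Dbp had 11.7, 12.1 and 7.25 and Arntl 0.812, 1.29 and 1.06.

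The pathway through which clenbuterol acts was visible at its lower steps. The stimulatory G protein Gnas had levels of 58.7, 55.1 and 66.6, the phosphodiesterase Pde4d 39.6, 29.9 and 33.3 on MOE430B, adenylate cyclase 9 (Adcy9) 15.3, 19.04 and 12.3, and the regulatory subunit Prkar1a of protein kinase A 13.4, 11.7 and 10.5. Of 22 genes measured, 18 of them on MOE430A, 15 were above the dim level, against 48.0% of all genes on MOE430A and 29.7% on MOE430B.

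Markers of other cell types showed a tissue with clear signals of connective tissue, vessels and fat and dim signals of blood cells. Of 176 entries over 13 marker lists, 96 lay above the dim level, a share not far from the 48.0% of all MOE430A genes, and the lists differed widely. All 17 genes of the fibroblast and matrix list did, with a median level of 10.9, as did 14 of 15 endothelial genes (median 3.75), 12 of 13 genes of smooth muscle and pericytes (4.47), 11 of 16 adipocyte genes (7.53) and 10 of 16 genes of macrophages and monocytes (1.74). In contrast 3 of 13 lymphocyte genes, 1 of 12 neutrophil genes and 2 of 8 erythroid genes passed it. By the way the dim level was set, few of the genes of other tissues that gave it can lie above it, and 5 of the 51 named ones did.

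In the vessels, the water channel Aqp1, also in red cells, had levels of 30.1, 27.8 and 24.3, the growth factor receptor Kdr 8.29, 7.71 and 6.51, Esam 5.52, 5.76 and 6.50 and Ramp2 7.09, 5.63 and 3.56. The defining endothelial genes Pecam1 (3.02, 3.09 and 2.63) and Cdh5 (5.07, 5.62 and 4.44) varied little, and the summed level of the list was 88.0, 81.7 and 74.8. Of the mural cell genes, desmin (Des), which fibres themselves contain, had 126, 94.5 and 120, Rgs5 66.0, 63.9 and 58.2, Acta2 30.3, 32.9 and 30.02 and Notch3 7.56, 6.81 and 7.35. The smooth muscle myosin Myh11 had 3.07, 2.58 and 1.76, and Cnn1 was under the dim level.

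The macrophage genes were led by Csf1r, the receptor of their growth factor (10.7, 9.95 and 7.13), the near-identical lysozymes Lyz1 (5.55, 6.70 and 5.75) and Lyz2 (5.40, 5.15 and 3.37), and Ctss (5.07, 3.54 and 3.57). Adgre1, which encodes F4/80, had 2.60, 2.55 and 1.95, while Cd68, Cd163, Itgam and the monocyte receptor Ccr2 were under the dim level. The T cell genes Cd3e, Cd3d, Cd3g, Cd4 and Cd8a were all under it in their means, and the only lymphocyte genes above it were the B cell genes Ighm (4.03, 5.53 and 3.60), Cd79a (2.09, 2.13 and 1.53) and Ms4a1 (1.39, 1.65 and 1.69). The neutrophil genes S100a8 and S100a9 had means under it too, with S100a8 at 0.205, 0.0354 and 0.196, and Ngp (1.63, 2.26 and 1.48) was the only one above. Of the globins with a probeset of their own, Hbb-b2 had 1.97, 1.54 and 1.56 and Hba-a1 0.841, 0.517 and 1.01. Most globin probesets carry several symbols and are not named.

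Nerve and junction were traceable by few genes. The myelin genes Pmp22 (16.4, 19.7 and 18.8), which other cells express as well, Mbp (6.70, 12.1 and 6.32) and Cnp (3.95, 5.36 and 3.82) and the Schwann cell genes Erbb3 (2.01, 2.60 and 2.61) and Sox10 (1.98, 2.28 and 1.08) made up the 5 of 13 above the dim level. Neurofilament genes Nefl, Nefm and Nefh, whose RNA stays in the cell body outside muscle, had levels under 1 in every pool. At the junction, Dok7 had 6.83, 6.27 and 7.57 on MOE430B, Chrnb1 4.61, 3.08 and 2.79, Utrn 3.99, 3.40 and 4.25 and Rapsn 1.85, 2.03 and 1.78, while the kinase Musk had 0.448, 0.677 and 0.734. Among satellite cell genes Cd34, also on vessels, had 6.68, 5.23 and 4.64, Sdc4 4.70, 3.50 and 5.65 and Sdc3 4.57, 2.55 and 3.26, but the defining gene Pax7 had 0.955, 1.07 and 1.02, under the dim level.

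**Figure D3:**
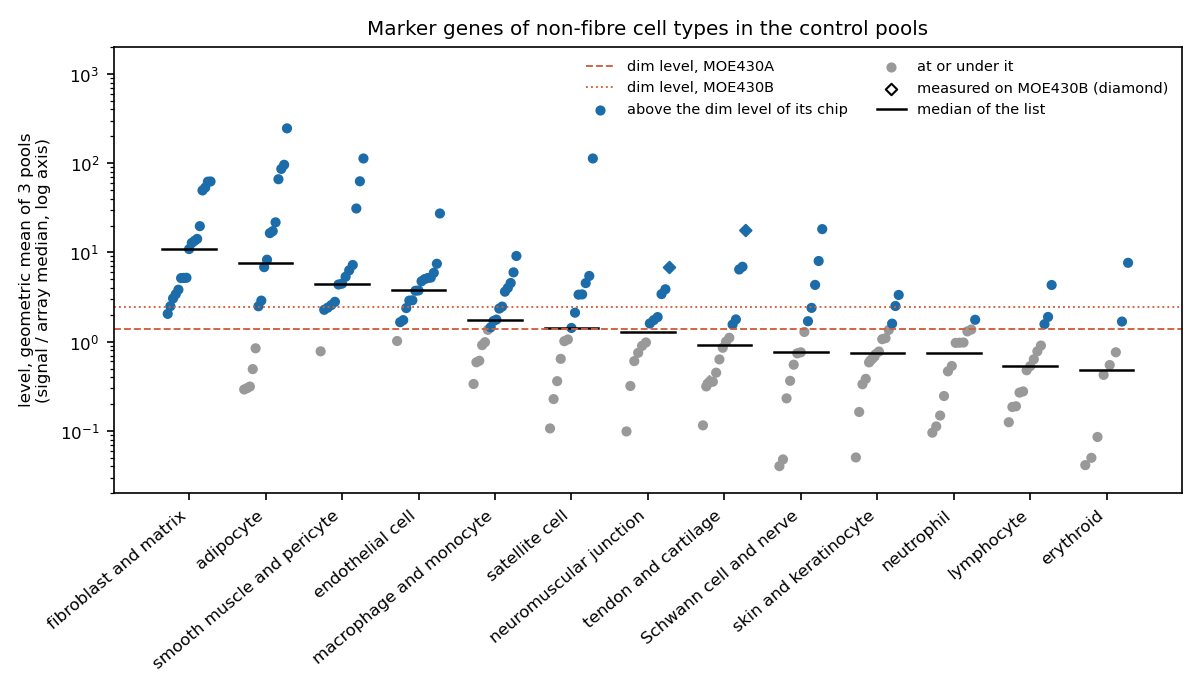
Level (geometric mean of 3 control pools, log axis) of every measured gene of the 13 marker lists, ordered by the median of the list, with the dim level of each chip as a broken line. Fibroblast, adipocyte, mural and endothelial lists lie mostly above the dim level of MOE430A at 1.39, and the neutrophil, lymphocyte and erythroid lists mostly under it.

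Fat genes were bright and differed between pools by gene. Those of highest level were Car3, also a muscle gene, Fabp4, a fatty acid carrier shared with capillaries (118, 76.9 and 96.7), Lpl, the lipase that muscle makes too (91.9, 75.0 and 92.7), and the desaturase Scd1 (91.9, 49.6 and 63.1). Adiponectin (Adipoq), made by fat cells, had 21.2, 18.8 and 25.7, and resistin (Retn) 8.32, 5.25 and 7.32. Leptin (Lep) had 1.69, 0.972 and 0.364, with a mean under the dim level, as had Pparg and Aqp7. A pair of genes of brown fat, both under the dim level, was highest in pool 2. Ucp1, the heat-producing uncoupler, had signals of 5.50, 115 and 4.20 and levels of 0.179, 1.77 and 0.0981, and Cidea had levels of 0.104, 1.34 and 0.178. Fasn had 8.47, 13.2 and 5.08 and was likewise highest in pool 2. The part of brown fat in these values was not tested. The summed level of the whole list was 686, 485 and 572, a sum that bright genes made by muscle as well, such as Car3, dominate. After quantile normalization the list deviated by 0.21, -0.06 and -0.06 (median, log2 scale), so that pool 2 was no lower than pool 3.

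Matrix genes set pool 3 apart. Type I collagen, the main fibre of connective tissue, had levels of 107, 65.0 and 34.9 for Col1a2 and 23.7, 16.0 and 6.44 for Col1a1 in pools 1, 2 and 3. A second probeset of each gave 35.6, 22.8 and 11.7 for Col1a2 and 20.04, 14.1 and 7.67 for Col1a1. Type III collagen (Col3a1) varied less, at 72.8, 59.0 and 55.5, and the matrix proteins Sparc and Dcn had 70.8, 55.5 and 38.3 and 59.4, 49.1 and 41.5. Of the 17 matrix genes, 16 were lowest in pool 3 and 0 were highest there, against 33.3% and 36.9% of all genes. Their median deviation was 0.23, 0.06 and -0.30 on the log2 scale, and 0.22, 0.15 and -0.29 after quantile normalization, and their summed level was 436, 344 and 245.

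Most genes of the tendon and cartilage list on MOE430A ran the same way. Fibromodulin (Fmod), which binds collagen fibrils, had levels of 11.5, 7.79 and 3.68 for its brightest probeset, and all 6 of its probesets had the same order of pools. Tenomodulin (Tnmd) had 2.86, 1.39 and 0.946, chondroadherin (Chad) 1.61, 0.742 and 0.213 and the tendon factor Scx 0.666, 0.388 and 0.121. Cilp on MOE430B had 20.2, 15.1 and 17.9 and Thbs4 6.90, 6.25 and 6.19. The 13 genes that passed the filter deviated by 0.58, 0.08 and -0.40 (median). Of these, 10 were highest in pool 1 and 10 lowest in pool 3, against 32.6% and 33.3% of all genes. Acan, with 0.649, 0.893 and 1.07, ran the other way, and Sox9, with 0.237, 0.611 and 0.311, was also lowest in pool 1. Both lay under the dim level. Only 5 of the 14 measured lay above the dim level. On MOE430B a second probeset of Scx gave 1.86, 2.45 and 2.83 and one of Sparc 1.79, 4.02 and 5.64, in the opposite order and near or a little over the dim level of that chip.

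Keratinocyte genes ran the other way. Krt5 and Krt14 are the keratins of the basal layer of skin, and Krt15 is a keratin of the same layer. Krt5 had signals of 3.90, 49.6 and 206 in pools 1, 2 and 3, or levels of 0.127, 0.764 and 4.82. Krt15 had signals of 2.50, 6.40 and 198, or levels of 0.0812, 0.0985 and 4.63. Desmoplakin (Dsp), which ties epithelial cells together, had levels of 0.256, 0.984 and 4.82, and Krt10, a keratin of the upper layers, had 2.04, 2.83 and 6.43. Loricrin (Lor) had 1.28, 2.91 and 4.24 and Krt1 0.614, 1.63 and 2.49. The probeset of Krt14 with the highest mean had 0.825, 0.650 and 0.713, while its other probesets had 0.0877, 0.450 and 3.28 and 0.117, 0.105 and 1.42. The epithelial keratins Krt8 and Krt18, which simple epithelia use in place of these, had 1.81, 1.27 and 1.75 and 0.578, 0.176 and 0.556 and were not highest in pool 3.

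Taken as a list, 8 of the 12 skin genes that passed the filter were highest in pool 3, against 36.9% of all genes, and 8 were lowest in pool 1, against 33.1%, and their median deviation was -0.71, -0.20 and 0.82 on the log2 scale and -0.71, -0.20 and 0.84 after quantile normalization. Their summed level was 9.67, 13.5 and 34.5. Only 3 of the 14, Krt10, Lor and Krt8, lay above the dim level. The part of adhering skin in these values was not tested. Pool 3 was thus low in matrix genes and high in skin genes. The skin list is dim, with a median level of 0.750, and dim probesets spread more between pools than bright ones.

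**Figure D4:**
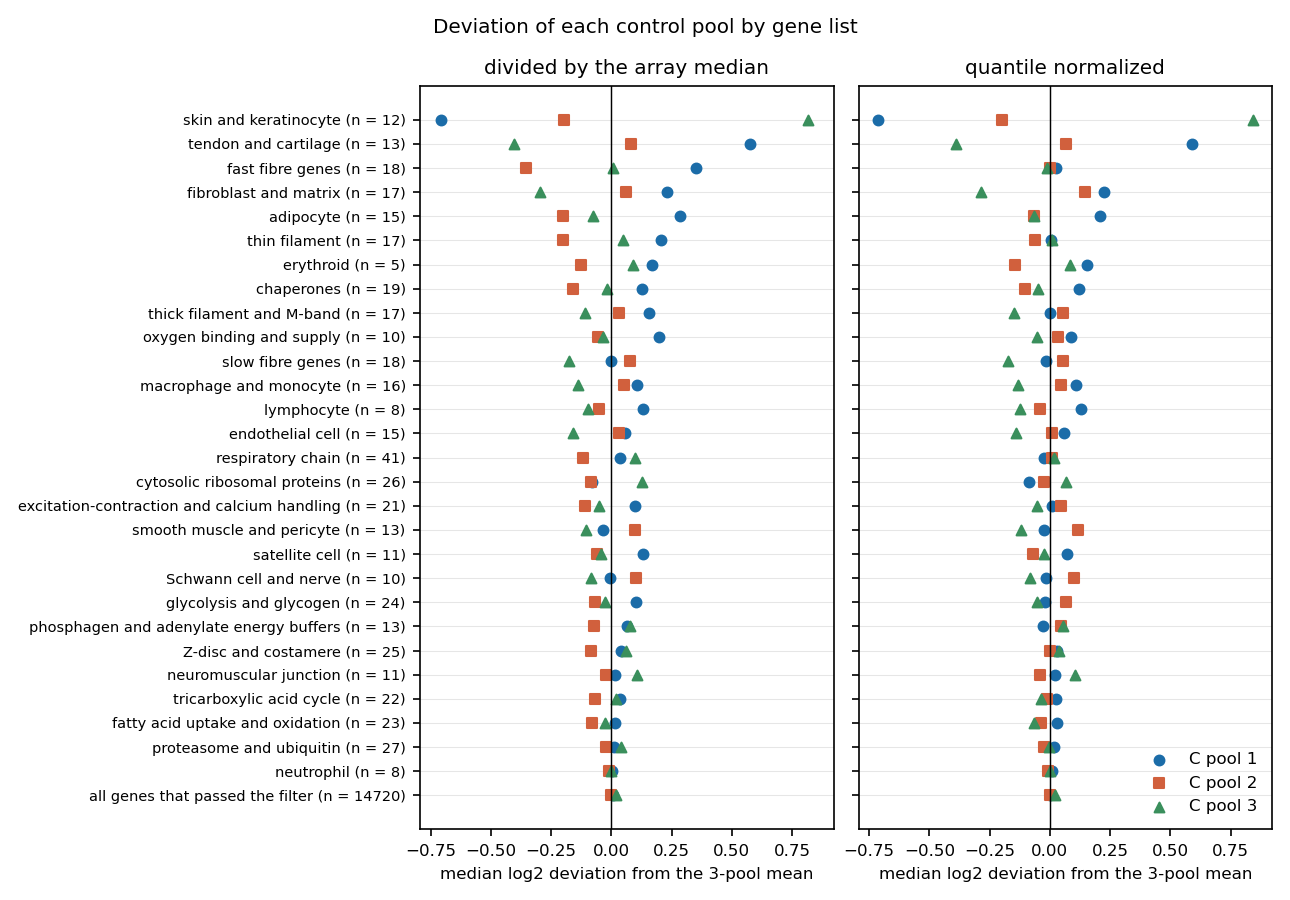
Median log2 deviation of each control pool from the mean of the 3 pools, for each gene list, after division by the array median (left) and after quantile normalization (right), with the number of genes that passed the filter on dim probesets. The skin and tendon lists are widest in both panels, at 0.82 and -0.40 for pool 3 on the left, while the fast fibre list is wide on the left only.

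Single probesets that differed most between control pools were looked for among those with a mean level of at least 4 and 1 symbol. The widest on MOE430A was AY036118, with levels of 39.9, 31.4 and 4.32 (SD 1.76 on the log2 scale). Malat1, a long noncoding RNA kept in the nucleus, gave 2 of the 10, with 10.2, 4.81 and 2.54 and 34.6, 34.5 and 12.5, and its other probesets on that chip also had their lowest level in pool 3, at 11.7, 33.3 and 5.36. Its MOE430B probesets had 26.9, 11.5 and 12.4 and 13.1, 15.4 and 13.0, so pool 3 did not stand apart from both others there. Hnrnpab gave 39.2, 23.4 and 8.42 on 1 probeset but 16.5, 12.6 and 16.4 on another. The collagen gene Col1a1, Fmod and the matrix protease Mmp2 (4.66, 11.2 and 3.36) were also among the 10, with Ptpn2, Apex1 and Nfic.

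On MOE430B the widest was Col27a1, a cartilage collagen, with 8.30, 7.46 and 1.49 (SD 1.39 on the log2 scale), though its other probeset had 4.90, 2.14 and 2.49. Herc6 had 5.13, 2.02 and 9.25, Igf2bp3 2.52, 7.87 and 9.06, and Fam25c 3.54, 6.57 and 13.9. Ssr3 had 65.4, 19.7 and 26.2, while another of its probesets had 49.5, 40.9 and 59.9 on the same chip and 23.4, 25.7 and 27.4 on MOE430A. Ildr2, Gm33409, Spock3, Prss41 and Ctxn3 made up the 10, with SDs from 0.76 to 0.96. Other probesets of the same gene thus did not follow the order of pools for Hnrnpab, Col27a1 and Ssr3, nor for Ptpn2, where another probeset had 2.15, 2.12 and 2.42, and Mmp2, where the other had 7.37, 6.28 and 4.15. They did for Col1a1 and Fmod. The other probesets of Nfic also had their lowest level in pool 3, such as 36.2, 34.0 and 28.1. For a further Nfic probeset (3.00, 3.36 and 0.963) pool 2 was highest. Herc6 was mixed, with 1.66, 0.868 and 1.70 in the same order on a probeset but 0.137, 0.764 and 1.09 on another.

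The spread between control pools depended mainly on brightness. On MOE430A the median SD of the log2 level was 0.83 for probesets with a level under 0.25, 0.25 for levels of 1 to 2, and 0.15 for levels of 16 to 32. It was higher again, at 0.32, for levels of 128 or more, where it was 0.07 after quantile normalization. Over the 16969 probesets of MOE430A that passed the filter it was 0.25, and over the 16883 of MOE430B 0.35. A gap of 2-fold or more between the highest and the lowest pool was found in 3.80% of the 9191 MOE430A probesets above the dim level and in 5.16% of the 4589 on MOE430B, as against 70.1% of those on MOE430A with a level under 0.25. So a single dim gene differing 2-fold between control pools was common, and a bright one was rare.

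**Figure D5:**
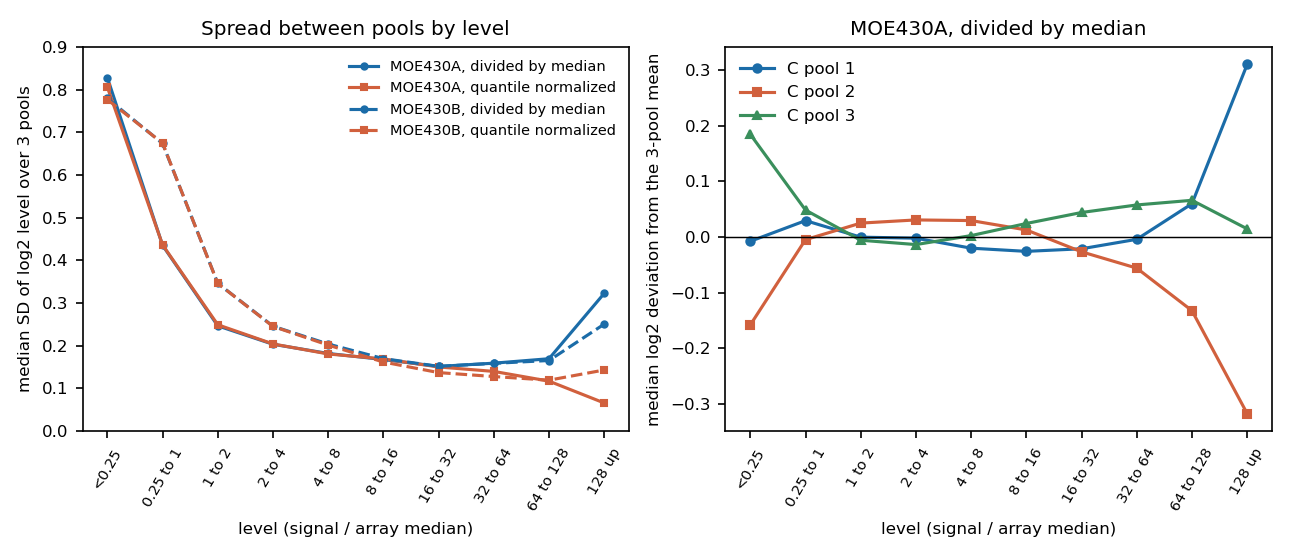
Left, median SD of the log2 level over 3 control pools by level, for both chips and both scalings. Right, median log2 deviation of each pool by level on MOE430A after division by the array median, where the brightest probesets part, with pool 1 at 0.31 and pool 2 at -0.32.

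Across all 22626 probesets of MOE430A the log2 levels of any pair of pools correlated with Pearson's r from 0.92 to 0.94, and across the 22511 of MOE430B from 0.85 to 0.87. These are correlations across probesets, which are not independent replicates. Pools 1 and 2 were the most alike on both chips. The same 100 probesets are on both chips, and their log2 levels correlated between chips with r from 0.97 to 0.98 in each pool. Deviations of a pool from the mean of the pools agreed less, with r of 0.20, 0.15 and 0.26 for pools 1, 2 and 3 over these probesets. For 746 genes with a different probeset on each chip and both above the dim level, r was 0.05, 0.02 and 0.08. For 1732 genes with 2 probesets on MOE430A, r between their deviations was 0.23, 0.14 and 0.25. Deviations of single probesets were thus only weakly shared with other probesets of the same gene.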

How the data were processed

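RNA from gracilis muscle of 3 mice was combined per pool and hybridised to the Affymetrix MOE430A and MOE430B arrays. The deposited values are signal intensities that the authors computed with MAS 5.0, on a linear scale with medians that differ between arrays, and no detection calls were used. Control probesets are not analysed here. Each intensity under 0.05 was set to 0.05, divided by the median of its array to give the level, and taken to log2. Of the 22626 probesets on MOE430A 20380 carry 1 gene symbol, 691 several and 1555 none in the platform annotation, and of the 22511 on MOE430B 14661, 245 and 7605. A gene was represented by its brightest probeset by mean log2 level, from MOE430A where it is there. Named were the 30 brightest genes of MOE430A, the 10 of MOE430B, the members of 35 gene lists and 45 isoform pairs, of which 41 were measured on 1 chip, and the 10 probesets per chip with the largest SD at a level of 4 or more. Deviations used probesets above the 25th percentile of mean level. With 3 pools of 1 group no test between groups was made, and the number of arrays limits the precision. The members and lists were chosen with earlier results of these data known. The scripts were tested on simulated data. Alternatives were quantile normalization, a trimmed mean in place of the median, other floors, filters and probesets, and leaving out a pool. Promoters were from RefSeq (GRCm38.p6). Python 3.11.15, numpy 2.4.6, pandas 2.3.3, scipy 1.17.1 and matplotlib 3.10.9 were used.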

Additional observations from a re-analysis of the deposited data

How the results depend on the processing

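No paired analysis was possible because only 1 group of pools is described. Of 1545 values recomputed for 165 results under the alternatives, 1363 stayed within the spread between pools (for counts, within 1.5 times), 168 moved further and 14 log2 isoform ratios changed sign. The count of genes with a level of 100 or more on MOE430A was 68, and it was 45 with the median over the probesets of a gene and 9 with a trimmed mean in place of the array median, a larger divisor that lowers every level by construction. The median SD of the log2 level on MOE430A was 0.25, and it was 0.20 with a filter at the 50th percentile, 0.31 with none, and from 0.18 to 0.21 when 1 pool was left out. On MOE430B it was 0.35, and 0.27, 0.41 and from 0.27 to 0.28 in the same order; the filters differ by construction in how many dim probesets they keep. Of 41 isoform ratios, 1 changed sign under another scaling or floor or without a pool (246 values), that of Pln to Sln, which was between -0.28 and 0.0091 when 1 pool was left out, the latter without pool 3. The choice of probesets turned some, and the cause was not tested. The log2 ratio of Tpm2 to Tpm1 became 5.53 with the brightest probeset of the first gene and the dimmest of the second, 4.42 with the dimmest of each and 4.71 with the median, and that of Tpm3 to Tpm1 3.26 with the first choice and 1.98 with the median. That of Pln to Sln became 2.59, 0.65 and 1.05 under the 3 choices, that of Tnni1 to Tnni2 1.10 and 1.10 and that of Myoz2 to Myoz1 1.99 and 1.99 under 2 of them, and that of Slc25a5 to Slc25a4 2.29 under the first. With the dimmest probeset of each gene 12 of the 16 fibre type pairs kept the numerator lower, and with the median 13. Of 99 recomputed values for list deviations of 0.2 or more, 1 changed sign, the pool 2 deviation of the fast fibre genes after quantile normalization, which was 0.00. Signals near the dim level limit the dim genes, whose SD between pools reached 0.83.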
